A study of Homo sapiens with 8 samples.

Results

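miR-31 is a microRNA (miRNA) made from a single hairpin on chromosome 9, and its 2 mature arms, hsa-miR-31-5p and hsa-miR-31-3p, were followed here across 4 human tumor-derived cell lines. The arms are 2 of 2588 mature miRNA names in the deposited table, and they were found by name. The hairpin was chosen by its levels in these same libraries, which were known to be near 0 in Huh-7 cells, so the levels below are a description and were not tested. Small RNA-seq had been carried out on total RNA of parental ES-2 (ovarian cancer), MV-3 (melanoma), Huh-7 (hepatocellular carcinoma) and A-549 (lung adenocarcinoma) cells. All cells were untreated and unmodified, were grown in the same medium and were harvested 48 h after seeding, with 2 libraries per line and 8 in all. Each line is a long-term culture from a single tumor, so a difference between lines is not a difference between tumor types. In such bulk samples, fewer cells with a miRNA and less of it per cell cannot be told apart.

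A miRNA hairpin is cut from a longer transcript by DROSHA and then by DICER, and usually 1 arm of the resulting duplex is loaded into an Argonaute protein while the other is degraded. The loaded arm recognises mRNAs mostly through its seed, bases 2 to 8 from the 5′ end, and lowers their stability and translation. miR-31-5p is the guide arm of this hairpin and is known as a repressor of genes of cell adhesion and motility, such as RHOA and ITGA5, with reports of both invasion-limiting and growth-promoting roles depending on the tumor. Its locus, 9p21, also holds the tumor suppressor gene CDKN2A and is often deleted in cancer.

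The sequences are given first because the seed and the neighbouring genes recur in the comparisons. The 71-base hairpin lies at chr9:21512115-21512185 of GRCh38, minus strand, in RefSeq. The 5p arm is shown in capitals in the hairpin, and the seed in capitals in the mature miRNA, which spans chr9:21512158-21512178.
hsa-mir-31 hairpin: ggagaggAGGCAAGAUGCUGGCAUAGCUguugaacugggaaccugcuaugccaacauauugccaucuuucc
hsa-miR-31-5p: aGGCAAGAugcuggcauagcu
The 5p arm takes up bases 8 to 28 of the hairpin and is 21 bases long. In the minimum free energy fold (-36.8 kcal/mol), the hairpin has 27 base pairs around a loop of 8 bases, and 17 of the 21 bases of the 5p arm are paired. None of the other mature miRNAs among 2370 in the RefSeq table shares this seed (0 matches), so miR-31-5p has no human seed family in that table.

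The annotation places the hairpin inside MIR31HG, a long non-coding RNA gene at chr9:21380073-21559891 on the same strand. Of 27 annotated MIR31HG transcripts, 21 span the hairpin, and 0 exons overlap it, so it is intronic. It lies 47.7 kb downstream of the first base of MIR31HG. CDKN2A, at chr9:21967752-21995301, is 456 kb away, and MTAP, whose product acts in the methionine salvage pathway, is 290 kb away, between the hairpin and CDKN2A. CDKN2B, another cell cycle inhibitor gene, follows at 491 kb, and the interferon gene IFNE is 29.8 kb away on the other side. Small RNA reads measure neither these genes nor the number of their copies.

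Reads of miR-31-5p were abundant in 3 lines and nearly absent from the fourth. ES-2 had 4574 and 6219 reads in replicates 1 and 2, MV-3 had 5515 and 8577, and A-549 had 24793 and 17347. Huh-7 had 2 and 3 reads, although its libraries were of the same size range as the others (1173902 to 2670030 miRNA reads over the 8 libraries). The floor of a line is set here at 3 reads per library. Both Huh-7 libraries were at the floor, and the lowest count elsewhere was the 4574 reads of ES-2 replicate 1.

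Levels are given on 2 scales, since the most abundant miRNAs took very different shares of each line's reads. Normalised CPM is the deposited value, counts per 1000000 reads after the authors' TMM (trimmed mean of M values) scaling, which adjusts for composition. Library CPM is reads per 1000000 miRNA reads of the library without that scaling. A read covers a whole mature miRNA, so no correction for length was made. Whether the libraries captured both arms equally well was not measured, so a ratio of the arms is a ratio of reads. The TMM factors ran from 0.593 in A-549 replicate 2 to 1.70 in Huh-7 replicate 2.

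In normalised CPM, miR-31-5p had 0.563 and 1.02 in Huh-7, 3175 and 3194 in ES-2, 4082 and 4707 in MV-3, and 15261 and 14187 in A-549. The line means were 0.794 ± 0.326 (SD, n = 2), 3185 ± 13.2, 4395 ± 442 and 14724 ± 760, in that order. The libraries of neighbouring lines in this order did not overlap, and each step exceeded the SD of the replicates. A-549 exceeded MV-3 3.35-fold and MV-3 exceeded ES-2 1.38-fold. Such separation is common in this table. Among 380 miRNAs averaging 10 normalised CPM or more, both ES-2 libraries lay above both Huh-7 libraries for 36.1%, and both MV-3 libraries above both ES-2 libraries for 36.1%. The share was 40.3% for MV-3 above Huh-7, 46.6% for A-549 above Huh-7, 43.2% for A-549 above ES-2 and 46.6% for A-549 above MV-3. Nothing is read from these shares, since the levels had chosen the hairpin.

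The order of the lines was the same in library CPM, but the distances between them were not. Library CPM of miR-31-5p averaged 8852 ± 613 in A-549 (SD, n = 2), 5117 ± 593 in MV-3, 2730 ± 28.5 in ES-2 and 1.33 ± 0.584 in Huh-7. From this, the step from ES-2 to MV-3 grew to 1.87-fold and the step from MV-3 to A-549 shrank to 1.73-fold. As a share of miRNA reads, miR-31-5p took 0.885% ± 0.0613 in A-549, 0.512% ± 0.0593 in MV-3 and 0.273% ± 0.00285 in ES-2. Its rank among all miRNAs was 11 and 13 in the A-549 libraries, 27 in both MV-3 libraries, 32 in both ES-2 libraries, and 735 and 672 in the Huh-7 libraries.

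Because only 5 reads were counted in Huh-7, the distance to the other lines is known within wide limits. With the reads of both libraries of a line pooled, library CPM of miR-31-5p relative to Huh-7 was 2122-fold in ES-2 (95% exact interval 909 to 6538), 4028-fold in MV-3 (1726 to 12407) and 6934-fold in A-549 (2971 to 21355). In normalised CPM the ratios were larger, at 4129-fold in ES-2 (1769 to 12718), 5755-fold in MV-3 (2466 to 17727) and 19179-fold in A-549 (8218 to 59070). These intervals cover counting error only, not the spread between cultures.

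**Figure D1:**
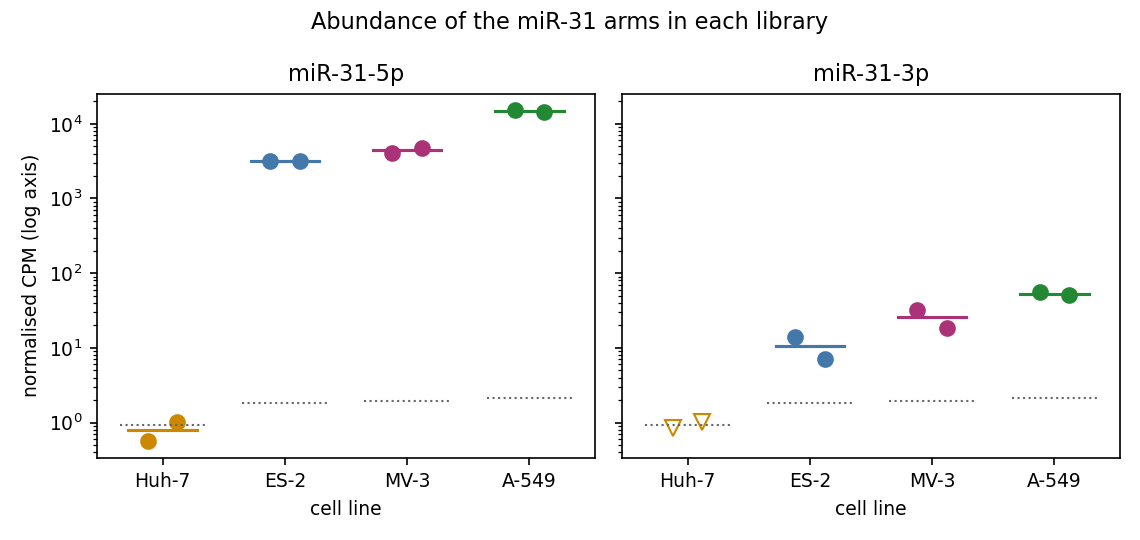
Normalised CPM (log axis) of miR-31-5p (left) and miR-31-3p (right) in each library, by cell line; filled points are libraries, solid bars are means of 2 libraries, dotted lines mark the value of 3 reads averaged over the line, and open triangles stand at the value of 3 reads for libraries with 0 reads. miR-31-5p lies between 3175 and 15261 in ES-2, MV-3 and A-549 and at 0.563 and 1.02 in Huh-7, and miR-31-3p has the same order of lines with fewer reads.

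miR-31-3p, the arm opposite the guide, had far fewer reads than the 5p arm in ES-2, MV-3 and A-549. It had 20 and 14 reads in ES-2, 44 and 34 in MV-3, 90 and 62 in A-549, and 0 and 0 in Huh-7. In normalised CPM, these were 13.9 and 7.19 in ES-2, 32.6 and 18.7 in MV-3, and 55.4 and 50.7 in A-549. The libraries of these 3 lines did not overlap on this scale, in the same order as for the 5p arm. The means were 10.5 ± 4.73 (SD, n = 2) in ES-2, 25.6 ± 9.84 in MV-3 and 53.1 ± 3.32 in A-549.

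Without the TMM factors, MV-3 and A-549 could not be separated by the 3p arm. Library CPM was 37.5 and 21.9 in MV-3 and 33.7 and 30.1 in A-549, so the A-549 libraries lay between the MV-3 libraries. Both ES-2 libraries, with a mean of 9.06 ± 4.19 (SD, n = 2), lay below those of both lines. In Huh-7, with 0 reads, the floor of 3 reads equals a share of 0.000138% of reads in replicate 1 and 0.000175% in replicate 2. The upper end of the 95% interval for counting error alone was 1.70 library CPM in replicate 1 and 2.15 in replicate 2. Set against 3 reads in each Huh-7 library, the library CPM of the 3p arm in A-549 was at least 20.4-fold higher, that in MV-3 at least 19.0-fold higher and that in ES-2 at least 5.80-fold higher. In normalised CPM these bounds were 56.8-fold, 27.4-fold and 11.3-fold, in the same order. The bounds take the line means as they are and leave out their counting error. In ES-2 replicate 2, with 14 reads, the 95% interval of library CPM for counting error alone ran from 3.34 to 10.2. The low level of the 3p arm thus bounds the difference from Huh-7 far less tightly than the 5p arm does.

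The balance between the arms was examined next, since it is a ratio within a library that no scaling factor touches and by which the hairpin was not chosen. There were 229 and 444 reads of the 5p arm per read of the 3p arm in ES-2 replicates 1 and 2, 125 and 252 in MV-3, and 275 and 280 in A-549. The 3p arm made up 0.435% and 0.225% of the reads of both arms in ES-2, 0.792% and 0.395% in MV-3, and 0.362% and 0.356% in A-549. Exact (Clopper-Pearson) 95% intervals of these shares ranged from 0.123% to 0.377% in ES-2 replicate 2 and from 0.576% to 1.06% in MV-3 replicate 1, the lowest and the highest library. The A-549 libraries nearly coincided, whereas the libraries of ES-2 and of MV-3 differed about as much from each other as lines did. In MV-3, replicates 1 and 2 differed by more than counting error (Fisher's exact test on the reads of these 2 libraries, two-sided p = 0.00234), and in ES-2 this test gave p = 0.0572.

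On the log2 scale with 0.5 reads added to each arm, the ratio of 5p to 3p was 8.27 ± 0.667 (SD, n = 2) in ES-2, 7.46 ± 0.710 in MV-3 and 8.11 ± 0.0133 in A-549. Huh-7 gave no ratio, with 5 reads of the 5p arm and 0 of the 3p arm. The ratio was compared between lines with limma in 1 fit of all 105 pairs of 5p and 3p arms with a mean of at least 10 reads on each arm. miR-31 did not pass an adjusted p below 0.01 in any of the 3 comparisons. Its ratio in MV-3 differed from that in ES-2 by -0.82 (SE 0.53, 95% interval -2.10 to 0.46, limma's adjusted p = 0.363). In A-549 it differed from that in MV-3 by 0.65 (SE 0.53, interval -0.63 to 1.93, limma's adjusted p = 0.461) and from that in ES-2 by -0.17 (SE 0.53, interval -1.45 to 1.11, limma's adjusted p = 0.922). Over 16 alternatives each, the lowest adjusted p was 0.241 for MV-3 against ES-2, 0.299 for A-549 against MV-3 and 0.663 for A-549 against ES-2.

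Calls were rare in this fit, at 3.81% of pairs of arms (4 of 105) for MV-3 against ES-2, 1.9% (2 of 105) for A-549 against MV-3 and 0.0% (0 of 105) for A-549 against ES-2. At an unadjusted p below 0.05, limma gave 14 for the last, and edgeR and DESeq2 called 4 each. The 4 calls of MV-3 against ES-2 became 0 when any single library of ES-2 or MV-3 was left out. The 2 calls of A-549 against MV-3 became 0 without ES-2 replicate 1, ES-2 replicate 2 or MV-3 replicate 1, 3 without MV-3 replicate 2 or A-549 replicate 1, and 4 without A-549 replicate 2. All 4 calls of MV-3 against ES-2 were lower in MV-3, with miR-199b the largest of these changes and miR-99b the smallest. The 2 calls of A-549 against MV-3 were miR-199b and miR-99b. The log2 ratio of miR-99b was lower in MV-3 than in ES-2 by -1.46 and higher in A-549 than in MV-3 by 2.13. For miR-199b these were -8.16 and 10.08, but its 3p arm shares its sequence with that of miR-199a, so these values are uncertain. miR-199a-3p had 18 and 8 reads in A-549, against 10296 and 12515 in MV-3. Since the filter used the mean over all tested libraries, a pair of arms could pass it with few reads in A-549.

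**Figure D2:**
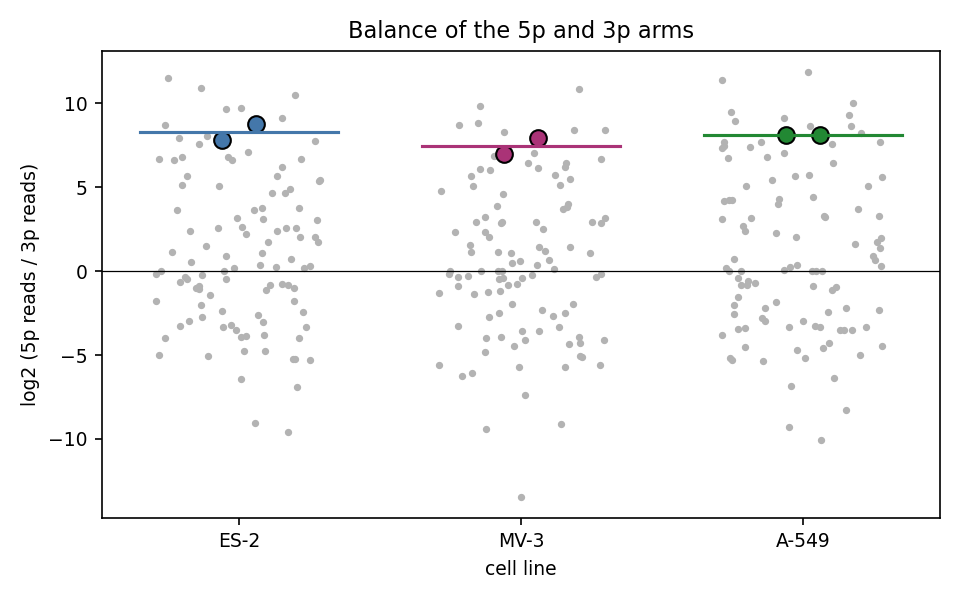
Log2 ratio of 5p to 3p reads (0.5 added to each) by cell line; large points are the 2 libraries of miR-31, horizontal bars their means, and grey points the line means of the other pairs of arms tested. miR-31 lies near the upper end in each line, at 8.27 in ES-2, 7.46 in MV-3 and 8.11 in A-549, with the replicates of ES-2 and MV-3 spread and those of A-549 close together.

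Compared with the other pairs of arms tested, miR-31 was strongly one-sided in its reads. Among the 105 pairs of arms, its excess of 5p reads ranked 8 in ES-2, 8 in MV-3 and 11 in A-549. The filter on each arm left out hairpins whose rarer arm was hardly read, so these ranks hold among the 105 pairs only. The log2 ratio, taken in either direction, had a median size of 3.24 in ES-2, 3.29 in MV-3 and 3.50 in A-549. Argonaute is known to favour guide strands that begin with U or A. miR-31-5p begins with A, as did 27.4% of 95 more abundant arms with a RefSeq sequence, while 49.5% began with U.

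The miRNAs around the hairpin were described to place its levels in the locus. Within 10000 kb on either side, RefSeq lists 6 further hairpins with 11 mature names in the table, and 5 of these names had at most 3 reads in every library. In ES-2, MV-3 and A-549, none of the 11 came near the level of miR-31-5p. Their highest count in any library was 62 reads, of miR-4473 in Huh-7 replicate 1, where miR-31-5p had only 2 reads. The pattern of miR-31 was not shared by its nearest neighbours. miR-491, 796 kb away within FOCAD, had few reads of its 5p arm in each line, with 16 and 9 in Huh-7, 8 and 0 in ES-2, 6 and 5 in A-549, and 0 and 5 in MV-3. These counts were low in every line, and no order of lines is read from them.

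miR-4473, 1101 kb away within MLLT3, had 62 and 52 reads in the Huh-7 libraries, against 1 and 0 in ES-2, 7 and 2 in MV-3 and 6 and 3 in A-549. Its library CPM was 29.4 ± 1.23 (SD, n = 2) in Huh-7 and at most 3.63 ± 3.30 in the other lines. Huh-7 was thus the highest line for miR-4473 and the lowest for miR-31, while ES-2 was the lowest of the other 3 lines for both. miR-4474-3p, 1010 kb away within the same gene, had 2 and 4 reads in Huh-7 and 0 in all other libraries. The arms of miR-3152, 2939 kb away within ADAMTSL1, were read in ES-2 and MV-3 but had 0 reads in both Huh-7 and both A-549 libraries. For miR-3152-5p there were 51 and 37 reads in ES-2 and 18 and 25 in MV-3, and for miR-3152-3p 4 and 25 in ES-2 and 23 and 24 in MV-3. A-549 had the highest level of miR-31 and 0 reads of miR-3152, which lies on the side of the hairpin away from CDKN2A. Copy number and methylation of the locus were not measured here, and their part in these levels was not tested.

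**Figure D3:**
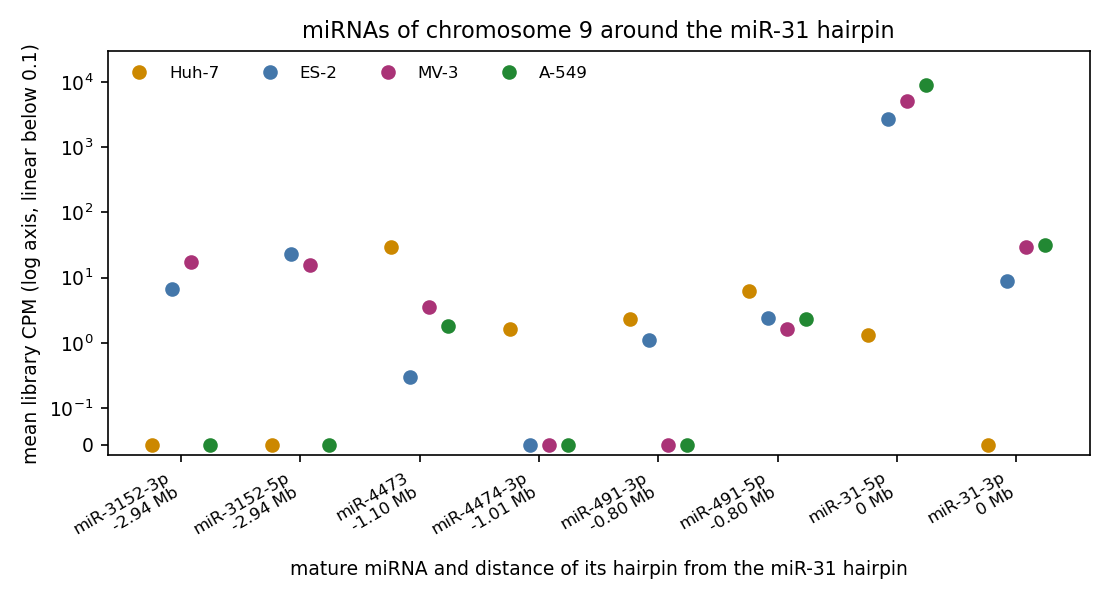
Mean library CPM (log axis, linear below 0.1) of miR-31 and of neighbouring miRNAs on chromosome 9 with more than 3 reads in any library, by cell line; each point is the mean of 2 libraries and the label gives the distance of the hairpin from that of miR-31. miR-31-5p is the most abundant by far in ES-2, MV-3 and A-549, while miR-4473 is highest in Huh-7, at 29.4.

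miRNAs at the floor in both libraries of a line and above a set level in the others were also counted. Since the hairpin had been chosen for its low level in Huh-7, the count restates that choice for miR-31-5p and serves to name any other miRNA with that pattern. Of 39 miRNAs averaging 1000 library CPM or more in each of ES-2, MV-3 and A-549, 1 was at the floor in Huh-7, and it was miR-31-5p. The corresponding counts were 0 of 32 for ES-2, 0 of 32 for MV-3 and 0 of 38 for A-549. When at least 100 library CPM was required, a limit added after seeing the data, 3 of 105 miRNAs were at the floor in Huh-7. The additional names were both arms of miR-361, a hairpin of the X chromosome. miR-361-5p had 740 ± 28.9 library CPM in ES-2, 311 ± 9.06 in MV-3 and 274 ± 12.8 in A-549 (SD, n = 2), with 1 read in the Huh-7 libraries together. miR-361-3p had 451 ± 25.1, 134 ± 11.7 and 177 ± 33.4 in these lines and 0 reads in Huh-7. At this limit 1 of 92 miRNAs, miR-452-5p, was at the floor in MV-3.

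miRNAs whose levels ran most like those of miR-31-5p were ranked by Pearson's r of log2(normalised CPM + 1) over the 8 libraries, among 379 other miRNAs averaging 10 normalised CPM or more. The points share their libraries and fall into 4 lines of 2, so r is a description. The 5 highest were let-7i-3p (r = 0.994), miR-135b-5p (0.992), let-7i-5p (0.989), let-7b-5p (0.986) and let-7b-3p (0.986). The let-7 miRNAs are known as brakes on growth genes such as LIN28B and HMGA2. miR-31-3p ranked 19, with r = 0.962. In all, 35 miRNAs had r above 0.9.

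All 5 had their lowest level in Huh-7, as had miR-31-5p, but their levels elsewhere differed widely. let-7i-3p and let-7b-3p were listed at 0 in Huh-7 and averaged only 38.9 to 56.7 and 42.0 to 61.2 normalised CPM in the other lines. let-7i-5p had a mean normalised CPM of 14.6 ± 8.32 in Huh-7 and 18218 ± 327 to 35610 ± 2711 in the other lines. miR-135b-5p had 1.65 ± 1.53 in Huh-7, 131 ± 28.9 in ES-2, 139 ± 2.89 in MV-3 and 211 ± 35.3 in A-549. The likeness rested on Huh-7. Over the 6 libraries of the other lines, r with miR-31-5p was 0.759 for let-7i-3p, 0.888 for miR-135b-5p, 0.487 for let-7i-5p, 0.493 for let-7b-5p and 0.427 for let-7b-3p. Among ES-2, MV-3 and A-549, MV-3 was in the middle for miR-31-5p but lowest for both let-7i-5p and let-7b-5p.

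**Figure D4:**
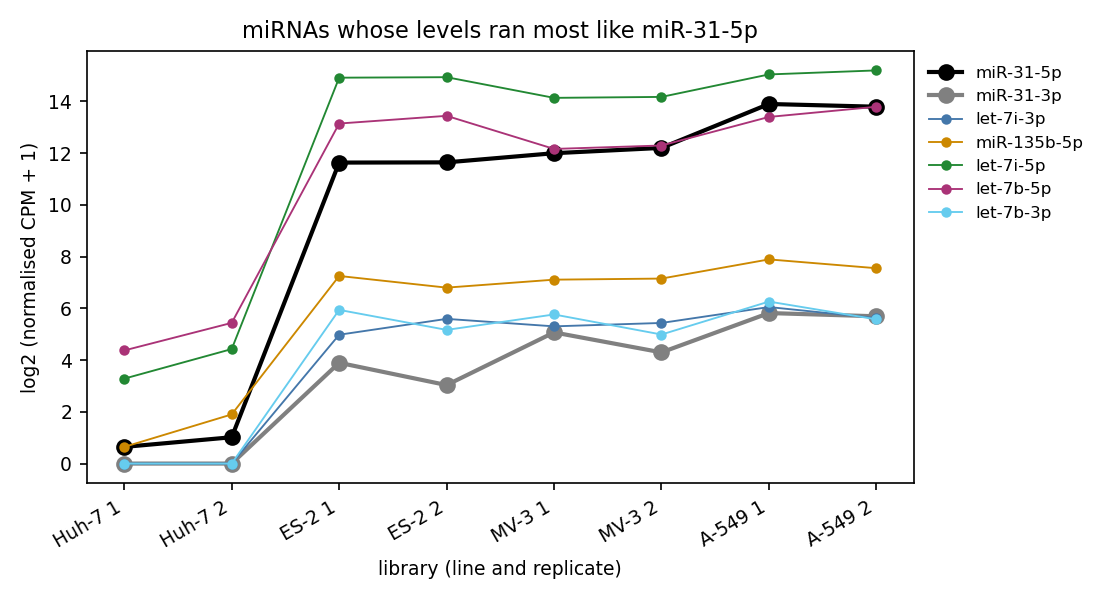
Log2(normalised CPM + 1) of both arms of miR-31 (thick lines) and of the 5 miRNAs with the highest r to miR-31-5p, in each library; lines join the libraries of a miRNA only to guide the eye. All 7 are lowest in the Huh-7 libraries, while in MV-3 let-7i-5p and let-7b-5p dip and miR-31-5p does not.

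miR-31-5p was among the 10 abundant miRNAs that the study presented as predicted regulators of the mRNA of SRF. SRF is a transcription factor that drives cytoskeletal and growth genes. The study described the expression of these miRNAs as conserved in the 4 lines. It displayed them by line in a heatmap, sorted by their median CPM. For miR-31-5p, the median used for sorting does not by itself show the mean of 1.33 library CPM in Huh-7. That list was drawn up by the study on these libraries and is no independent evidence. The reverse complement of the seed, TCTTGCC, was searched on the sense strand of the 3′UTR of the SRF transcript (2316 bases, GENCODE on GRCh38) and occurred 2 times. The sites are shown with the match in capitals, at chr6:43179568-43179590 and chr6:43180891-43180913, plus strand.
SRF site 392 bases into the 3′UTR: agcagttggggcccTCTTGCCag
SRF site 1715 bases into the 3′UTR: aaccctcattgctgTCTTGCCcc
Among 5153 genes with a 3′UTR of at least this length, 17.4% held TCTTGCC at least once in the first 2316 bases. A match is a description of the letters and not a measured site.

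Within this list, miR-31-5p varied most over all lines, which restates its choice for a low level in Huh-7. Its share of the summed library CPM of the 10 miRNAs was 19.0% in A-549, where it ranked 2 behind miR-23a-3p, 6.50% in ES-2, 5.76% in MV-3 and 0.00309% in Huh-7. The highest line exceeded the lowest 6640-fold for miR-31-5p, a value set by the 5 reads of Huh-7. For the other 9 miRNAs this ratio was 2.60 (miR-22-3p) to 18.6 (miR-23b-3p). The lowest mean of any of them was 365 ± 13.3 library CPM, for miR-23b-3p in ES-2. Leaving Huh-7 aside, miR-31-5p did not vary most. A-549, its highest line, exceeded ES-2, its lowest among the others, 3.24-fold, against 18.6-fold for miR-23b-3p between the same lines.

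**Figure D5:**
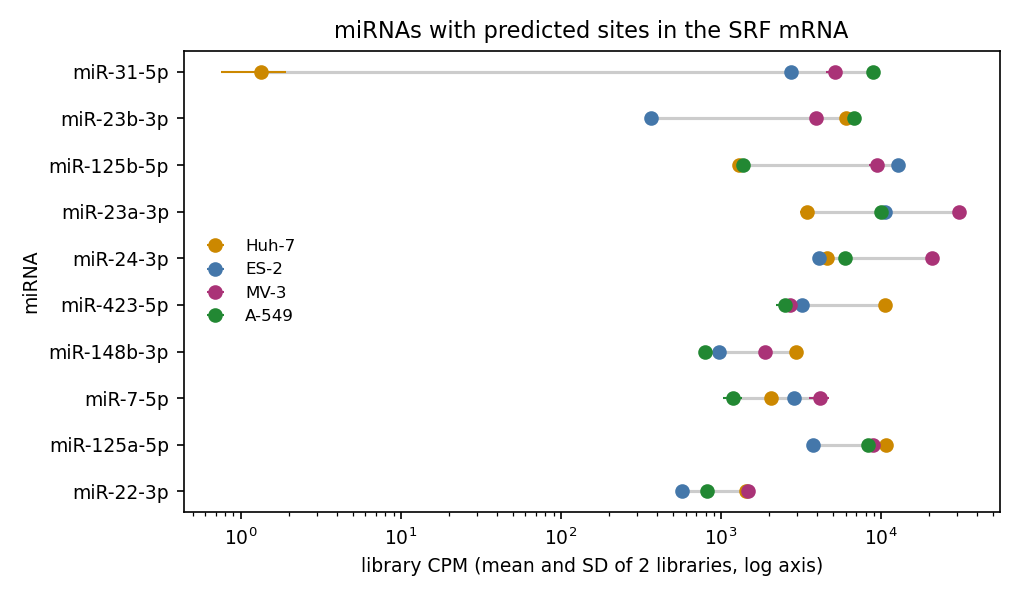
Library CPM (log axis) of the 10 miRNAs with predicted SRF sites by cell line; points are means and horizontal bars SDs of 2 libraries, grey lines join the lowest and the highest line of a miRNA, and miRNAs are ordered by that range. miR-31-5p spans from 1.33 in Huh-7 to 8852 in A-549, and no mean of the other miRNAs is below 365.

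Marker miRNAs were used to check the labels of the lines. Hepatocyte miRNAs (miR-122-5p, miR-885-5p, miR-192-5p and miR-194-5p) were highest in Huh-7 for 4 of 4, summing to 155186 and 167927 library CPM there and to at most 4762 elsewhere. Epithelial miR-200 family members were highest in Huh-7 for 4 of 5, with sums of 3821 and 3873 in Huh-7, 977 and 1024 in A-549, and between 34.1 and 54.2 in ES-2 and MV-3. The melanocyte miRNA miR-211-5p had 0 reads in both MV-3 libraries, and with miR-204-5p the list summed to 1.70 and 1.29 in MV-3 and to 65.3 and 51.2 in Huh-7, so the melanocyte markers were at or near 0 in the melanoma line. The 4 mesenchymal miRNAs did not share an order of lines, with 2 of them highest in MV-3 and 1 each highest in A-549 and Huh-7. Their sums were 10024 and 9343 in MV-3 and 4047 and 4094 in ES-2, nearly all from miR-199a-3p (means of 8424 and 4055). In A-549 they were 1545 and 1579 and in Huh-7 433 and 474, mostly from miR-143-3p (means of 1539 and 419), which averaged 14.6 in ES-2. Hematopoietic miRNAs summed to 480 and 427 in ES-2, from both arms of miR-142, and to at most 2.33 elsewhere, and muscle miRNAs to at most 12.9 anywhere. miR-31-5p was thus high in lines with both low and intermediate levels of the miR-200 family, and the part of cell type in its level was not tested.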

How the data were processed

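Small RNA libraries of 4 cell lines, 2 per line, were made by the authors with the NEXTflex Small RNA kit. Per the study's methods and the submitters' processing notes, Cutadapt 1.14 removed adapters, Bowtie2 2.3.2 aligned reads to GRCh38, featureCounts 1.5.3 counted reads on miRBase 21 mature miRNAs and edgeR 3.18.1 applied TMM. Handling of reads with several alignments, strand and PCR copies was not stated, so intervals cover counting error only. Replicates are biological per the study.

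The authors deposited normalised signal values. In each library 100% of values were whole multiples of the value of 1 read (tolerance 0.001), so reads, library sizes (1173902 to 2670030) and factors were recovered. The 2813 entries were summed to 2588 names. Each arm of miR-31 has 1 entry.

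The members and all lists were chosen with earlier results of these data known. The design's bound against 3 reads was used where Huh-7 had 0 reads. For miR-31-5p, with 5 reads, a pooled ratio with an exact interval was given instead. Arm ratios were tested with limma 3.58.1 (R 4.3.3) on log2((5p reads + 0.5)/(3p reads + 0.5)) in ES-2, MV-3 and A-549, with a prior variance following the rarer arm and Benjamini-Hochberg adjustment over 105 pairs of arms, two-sided, called below 0.01. The test was tried on 105 simulated pairs of arms, of which 60 were changed 4-fold in MV-3 against ES-2. It recovered 70% with 0 wrong calls. The simulation gave every pair of arms the same spread and, apart from that change, the same mean in each line. It also changed most pairs, whereas few were called in the real data. The 70% is thus a check of the procedure and not the power of the real test. edgeR 4.0.16 and DESeq2 1.42.0 on recovered reads were alternatives. Named miRNAs were both arms, the mature miRNAs within 10000 kb, the 5 with the highest r and those sharing the seed. Also named were those at the floor in Huh-7 with at least 1000 library CPM elsewhere. For each comparison with calls, the called pairs of arms with the highest and the lowest difference were named too. Sequences and hairpin positions came from RefSeq (GRCh38.p14), genes from GENCODE 44, and the fold from RNAfold 2.7.2. Neither arm's levels were tested.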

Additional observations from a re-analysis of the deposited data

How the results depend on the processing

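The order Huh-7, ES-2, MV-3, A-549 of miR-31-5p was the same under each scaling tried, but the distances were not. As log2 ratios of line means, MV-3 over ES-2 was 0.46 and A-549 over MV-3 was 1.74, against 0.91 and 0.79 with library size only. A-549 over ES-2 was 2.21, against 1.70 with library size only and 2.31 with RLE factors. For miR-31-3p, A-549 over MV-3 was 1.05, against 0.10 with library size only. Without single libraries, the 5p ratios were 0.36 to 0.56, 1.65 to 1.85 and 2.16 to 2.26, and the 3p ratio of MV-3 over ES-2, 1.28 with all libraries, ran from 0.82 without MV-3 replicate 1 to 1.83 without ES-2 replicate 1.

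The arm ratio of miR-31 was not called in any of the 3 comparisons under any alternative. A-549 minus ES-2 changed sign to 0.086 with a pseudocount of 5 reads and, without single libraries, ran from -0.64 to 0.31. A pseudocount of 5 lowered the ratio within each line, from 8.27 to 7.94 in ES-2, from 7.46 to 7.30 in MV-3 and from 8.11 to 8.02 in A-549. Library scaling cancels in this ratio and was not run.

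The numbers of pairs of arms called depended on the settings. For MV-3 against ES-2 the 4 calls became 13 with a pseudocount of 5, 2 without a filter, 11 with edgeR, 13 with DESeq2, 0 without the trend and 14 at 0.05, and were 0 to 5 without single libraries. For A-549 against ES-2 the 0 calls became 12 with a pseudocount of 5, 4 with edgeR, 4 with DESeq2 and 1 at 0.05. For A-549 against MV-3 the 2 calls became 17 with a pseudocount of 5, 4 with a mean of at least 30 reads, 6 with all 8 libraries, 12 with edgeR, 12 with DESeq2, 1 without the trend and 16 at 0.05, and were 0 to 4 without single libraries. Where a library is left out, its partner is assumed to vary like the other lines.

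Replicate numbers were shared by the lines, but deviations of same-numbered libraries correlated at 0.089, -0.104 and -0.105, so the numbers were not treated as pairs. With a replicate block, MV-3 against ES-2 had 0 calls and A-549 against MV-3 had 2, and miR-31 was not called in any of the 3 comparisons.

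Of the 5 miRNAs most like miR-31-5p, 5 stayed among the highest 5 in library CPM, 4 with a pseudocount of 0.1, and 0 by Spearman's rho or without Huh-7. The count of miRNAs at the floor in Huh-7 was 1 at 1000 and 3 at 100 library CPM. miR-31-3p had 14 to 90 reads per library in the lines tested for the arm ratio.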

Other observations

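Without Huh-7, other miRNAs ran most like miR-31-5p. Over the 6 libraries of ES-2, MV-3 and A-549, the highest r was that of miR-376c-3p (0.999), miR-200b-3p (0.996), miR-323b-3p (0.995), miR-379-3p (0.993) and miR-126-3p (0.992). This set was chosen after seeing the data, and over all 8 libraries its r was 0.519, -0.475, 0.413, 0.533 and -0.477, in the same order. miR-376c-3p, miR-323b-3p and miR-379-3p are made from the imprinted DLK1-DIO3 region of chromosome 14, and miR-200b-3p is a marker of epithelial cells. The correlations share their libraries and rest on 3 lines of 2 libraries.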
